A study of Homo sapiens with 6 samples.

Results

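The genes described here are the clustered, mostly replication-dependent histone genes and the H1 linker histone genes, chosen by name alone. A gene was included where its GENCODE 44 symbol is H1 followed by a hyphen and a number, or H2AC, H2BC, H3C or H4C followed by a number. The rule uses no measured value. The symbols fit 73 genes of the annotation, of which 70 are described, out of 19977 genes in the count files. H2AC18 and H2AC19 were not analysed here. The 70 comprised 9 H1, 15 H2A, 18 H2B, 13 H3 and 15 H4 genes.

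The libraries came from NCRM-1, an established wild-type human induced pluripotent stem cell line grown as aggregates in vertical wheel bioreactors. Both media were E8, a defined medium for pluripotent cells. The treated medium also held polyethylene glycol (PEG) at 10 mg per ml and heparin sodium salt (HS) at 0.1 µg per ml, and the E8 control held neither. Single cells were seeded, 50% of the medium was replaced on day 2 and the culture ran for 4 days. There were 3 libraries per medium, all of 1 cell line with no genetic change. The labels read as 1 bioreactor for each medium, so effects of the vessel and of the medium cannot be told apart. The p-values measure the spread between libraries, which may be technical. The treatment text of the labels describes PEG and heparin for all 6 libraries, and the treatment named for each library was followed. The question was which transcripts differed between E8 with PEG and HS and E8 alone.

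Histones are the proteins around which DNA is wound. The core histones H2A, H2B, H3 and H4 form the nucleosome, and H1 binds the linker DNA at its entry and exit. Most clustered genes are read only in S phase, when new DNA has to be packed. Their mRNA has no introns and no poly(A) tail but ends just after a short stem-loop, which is bound by the stem-loop binding protein SLBP. Replication-independent histones such as H1-10 are made through the cell cycle from ordinary polyadenylated mRNA. The libraries were made from RNA enriched for poly(A), so mRNA that ends at the stem-loop is captured poorly, and the levels below are levels in poly(A)-enriched RNA.

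The stem-loop was sought in every annotated transcript by its known 16-base pattern on the strand of the transcript. The copies found in members read GGNNCTTNTNAGNGCC, where N marks a base that differed between genes, and the search had also left position 14 free. The pattern was found in 67 of the 70 genes. Within 50 bases of a transcript end it was found in 66 of them and in 74 of 19916 annotated genes (0.372%), so that 8 genes outside those described held it there. The 3 genes without it were H1-10, H1-7 and H1-8, and the name "replication-dependent" therefore does not cover them. H1-10 is a textbook replication-independent linker histone, H1-7 is a linker histone of spermatids and H1-8 one of oocytes. The 16 bases were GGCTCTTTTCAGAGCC in 38 genes, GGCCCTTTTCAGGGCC in 10 genes, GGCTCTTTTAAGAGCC in 9 genes and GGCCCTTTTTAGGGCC in 4 genes. Each of 6 further forms was in 1 gene. The stem opened with GGCCC in all 15 H4 genes and in no other member.

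The lines below give the stem-loop in capitals with 5 bases on either side (GRCh38, sense strand) for selected members of each core type, pairs of near copies among them. Of the H3 genes, H3C8 is shown although H3C10 had a slightly higher mean level, and the called H3C4 is not shown. The stem-loop has the same letters in H4C14 and H4C15 and in H3C14 and H3C15, but not in H4C11 and H4C12. They are H2AC6 (chr6:26124664-26124689, plus strand), H2BC9 (chr6:26252050-26252075, plus), H2AC25 (chr1:228457364-228457389, minus), H3C8 (chr6:26270918-26270943, minus), H4C11 (chr6:27824454-27824479, plus), H4C12 (chr6:27831173-27831198, minus), H4C14 (chr1:149833027-149833052, plus), H4C15 (chr1:149860764-149860789, minus), H3C14 (chr1:149840687-149840712, minus) and H3C15 (chr1:149853100-149853125, plus).
H2AC6: ccaaaGGCTCTTTTCAGAGCCcccct
H2BC9: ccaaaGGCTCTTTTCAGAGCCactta
H2AC25: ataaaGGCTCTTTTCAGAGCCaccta
H3C8: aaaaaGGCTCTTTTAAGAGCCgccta
H4C11: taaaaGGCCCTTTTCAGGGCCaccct
H4C12: caaaaGGCCCTTTTTAGGGCCcccac
H4C14: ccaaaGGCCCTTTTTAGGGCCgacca
H4C15: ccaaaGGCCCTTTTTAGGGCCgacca
H3C14: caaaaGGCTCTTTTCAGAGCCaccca
H3C15: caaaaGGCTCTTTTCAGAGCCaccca

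The annotated ends sorted the 70 genes into 4 classes. In 49 genes every annotated transcript ended at the stem-loop. In 16 genes with a stem-loop, a transcript without it near the end had a poly(A) signal (AATAAA or ATTAAA starting 10 to 40 bases before the end). In 2 genes (H3C12 and H4C16) transcripts without it near the end had no such signal, and 3 genes had no stem-loop. The sorting did not require these transcripts to be longer or to contain the stem-loop. The signals of 3 genes with a called change are shown next, in capitals with 10 bases on either side: H1-10 (chr3:129314777-129314802, minus), H2AC6 (chr6:26139078-26139103, plus) and H2AC25 (chr1:228456987-228457012, minus). H2AC6 and H2AC25 thus carry both kinds of end, and H2BC9 carries the stem-loop alone.
H1-10: ttttgggcacAATAAAgcgtttaaac
H2AC6: ggcatgaggtAATAAAaggtaatgca
H2AC25: tttatctgatATTAAAagtatttatg

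Levels are CPM, counts scaled to the library total and by TMM factors. Changes are log2 fold changes of PEG and HS over E8 control, tested in edgeR by quasi-likelihood, and adjusted p are by Benjamini-Hochberg over all 16505 genes tested. A gene was tested with at least 10 counts over the 6 libraries and called at an adjusted p under 0.05. The libraries held 26991279 to 36185138 counts, with mitochondrial genes at 4.54% to 5.16%. The summed CPM of 8 pluripotency markers lay at 7609 to 7773 in E8 control and at 7723 to 7987 with PEG and HS, but 3 of them rose (NANOG by 0.55, L1TD1 by 0.36 and POU5F1 by 0.23 on the log2 scale), SOX2 fell by 0.59, LIN28A by 0.30 and SALL4 by 0.25, and DNMT3B and TDGF1 were not called. Of the other cell types checked, the 5 neuroectoderm markers (SOX1, PAX6, LHX5, SOX3, ZIC1) all fell, and their sum was 55.9 to 58.5 CPM in E8 control and 21.5 to 22.8 CPM with PEG and HS. TFAP2A fell among the 4 trophectoderm and amnion markers, whose sum was 6.45 to 6.65 CPM in E8 control beside 0.561 to 1.45 CPM with PEG and HS. FOXD3 rose and SOX10 fell of the 2 neural crest markers (44.3 to 45.6 CPM summed in E8 control beside 52.8 to 56.9 CPM with PEG and HS). The 4 mesoderm and 4 endoderm markers held no call, and no marker was at 0 in every library. The mesoderm sum was 2.001 to 2.66 CPM in E8 control and 2.43 to 2.73 CPM with PEG and HS. The endoderm sum was 2.36 to 3.04 CPM in E8 control and 2.01 to 2.25 CPM with PEG and HS, without overlap. FOXA2 was below E8 control in each library (log2 fold change of -0.45, adjusted p = 0.0609, edgeR). The endoderm markers SOX17 and GATA4 had too few counts to be tested. The part of these shifts in the histone values was not tested. In such bulk samples fewer cells of a type, or fewer cells in S phase, and less RNA per cell cannot be told apart.

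Histone transcripts were scarce. All 70 genes together took 0.0273% to 0.0304% of the counts, and most of that came from H1-10. The median of the 61 tested members was 0.560 CPM, not scaled by length, against 18.9 CPM over all genes tested, and 21 members exceeded 1 CPM. Of the 9 not tested, H1-6, H1-7, H2AC1, H2BC1 and H4C7 had no count in any library, which allows up to 3 counts in each library (counting error only). H1-6, H2AC1 and H2BC1 are known from the testis. H1-1, H1-8, H2BC3 and H4C1 had 5 to 9 counts in all.

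Levels of different genes can be compared only per length, and here the length chosen set the order. Per kilobase of all annotated exons, the order in E8 control was H1-10 at 139.6 CPM per kb, H4C11 at 16.6, H2BC9 at 10.9, H2AC11 at 7.35, H2BC12 at 6.74, H1-2 at 5.45, H2AC6 at 4.48, H3C8 at 4.37 and H4C15 at 4.15. In PEG and HS, H1-10 was at 123.7, H4C11 at 17.5, H2BC9 at 15.3, H2AC11 at 9.07, H2AC6 at 6.66, H2BC12 at 5.86 and H1-2 at 5.80 CPM per kb. Exon length includes long alternative transcripts, 1878 bases for H4C15 against 396 in its shortest transcript and 1668 for H2AC6 against 519. Per kilobase of the shortest transcript, the order in E8 control was H1-10 at 139.6 CPM per kb, H4C15 at 19.7, H4C11 at 16.6, H2AC6 at 14.4, H2AC25 at 11.3 and H2BC9 at 10.9. Which transcripts the counts came from is not given by counts per gene, so the order below H1-10 is uncertain. Neighbours in either order were not tested against each other.

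Of the 61 tested members, 7 were called (11.5%), against 25.3% of all genes tested. H2AC6, H2BC9 and H2AC25 rose, 3 of 61 where 12.2% of all genes rose. H1-10, H4C12, H3C4 and H1-4 fell, 4 of 61 where 13.1% of all genes fell. For 10 members (16.4%) the media had no overlap between their libraries, against 39.3% of all genes tested. PEG and HS lay above in 7, where 19.5% of all genes did, and below in 3, where 19.8% did. An unadjusted p under 0.05 was found for 11 members, and for 36% of all genes. The shares of called and of non-overlapping members were thus below the background, at levels where 37 members had under 100 counts over all libraries. The median log2 fold change was -0.14 over the members and 0.00 over all genes tested, with 24 members positive and 37 negative.

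**Figure D1:**
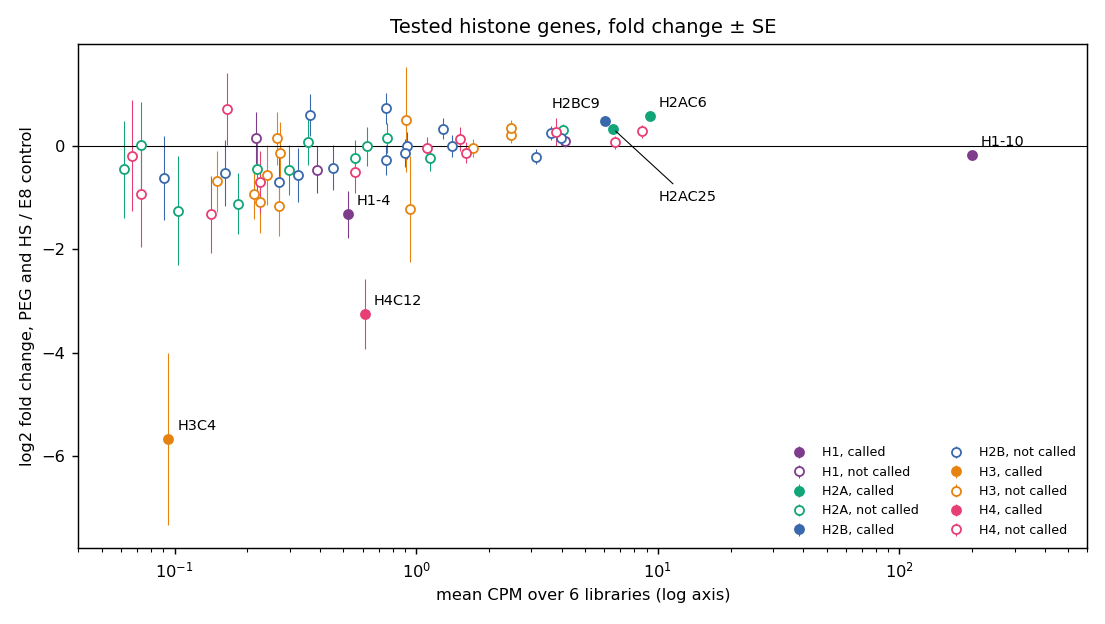
Log2 fold change of PEG and HS over E8 control (vertical axis, bars are the SE of the fit) against the mean CPM over 6 libraries (horizontal log axis) for the 61 tested histone genes, coloured by histone type. Filled points are the 7 called genes: H2AC6, H2BC9 and H2AC25 lie above 0 near 6 to 9 CPM, H1-10 below 0 at the highest level, and H1-4, H4C12 and H3C4 below 0 under 1 CPM, where the bars are long.

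Of the linker histones, H1-10 and H1-4 fell. H1-10 (ENSG00000184897, chr3:129314771-129316286, minus strand, 2 transcripts) encodes a linker histone made through the cell cycle and was the most abundant of all members. Its levels were 180.8, 191 and 191 CPM in PEG and HS against 211, 214 and 210 CPM in E8 control. The 3 PEG and HS libraries were all below the E8 control libraries. H1-10 fell by 0.17 ± 0.03 on the log2 scale (adjusted p = 0.000395, edgeR). H1-10 neither overlaps another listed gene nor shares 31-base words with one.

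Among the H1 genes that end at a stem-loop, H1-2 had 4.69, 3.75 and 4.29 CPM with PEG and HS beside 3.89, 4.16 and 3.91 CPM in E8 control. The groups overlapped, with a log2 fold change of 0.09 ± 0.12 (adjusted p = 0.623, edgeR). H1-4 was counted 6, 5 and 18 times in PEG and HS and 12, 24 and 38 times in E8 control. PEG and HS replicate 3 lay above E8 control replicate 1, so the groups overlapped, and the log2 fold change of -1.32 ± 0.46 passed the test narrowly (adjusted p = 0.0466, edgeR). H1-4 was no longer called with DESeq2 or after leaving out PEG and HS replicate 1 or 2 or E8 control replicate 2 or 3, with a largest adjusted p of 0.204 (DESeq2 or edgeR). H1-3 and H1-5, with means of 0.217 and 0.389 CPM, were not called.

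The H2A genes held 2 of the 3 rises. H2AC6 (ENSG00000180573, chr6:26124145-26139116, plus strand, 3 transcripts), a canonical H2A gene, measured 11.1, 10.97 and 11.2 CPM with PEG and HS beside 7.45, 7.54 and 7.43 CPM in E8 control. Within each medium the 3 libraries were nearly level, and the media were well apart. H2AC6 rose by 0.57 ± 0.07 on the log2 scale, or 1.49-fold (adjusted p = 1.68e-05, edgeR).

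H2AC25 (ENSG00000181218, chr1:228434777-228457873, minus strand, 3 transcripts), an H2A gene of the small cluster on chromosome 1, had 6.82, 7.61 and 7.42 CPM with PEG and HS beside 5.60, 6.06 and 5.65 CPM in E8 control. Every PEG and HS library was above every E8 control library. H2AC25 rose by 0.33 ± 0.09 on the log2 scale (adjusted p = 0.0111, edgeR), while DESeq2 gave an adjusted p of 0.0552.

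H2AC11 was also above E8 control in each library, at 4.83, 4.03 and 4.55 against 3.19, 4.00 and 3.69 CPM, but its log2 fold change of 0.30 ± 0.13 was not called (adjusted p = 0.0949, edgeR). The other 11 tested H2A genes had means from 0.0620 to 1.15 CPM, and none was called.

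H2BC9 (ENSG00000275713, chr6:26251614-26252075, plus strand, 1 transcript) was the highest H2B gene in CPM and per kb. It had 6.64, 7.64 and 6.97 CPM with PEG and HS beside 5.08, 5.17 and 4.88 CPM in E8 control, with no overlap. H2BC9 rose by 0.49 ± 0.09 on the log2 scale, or 1.41-fold (adjusted p = 0.00106, edgeR), and it was the one called rise among genes whose only annotated end is the stem-loop. H2BC21, the next in CPM, had 3.85, 4.88 and 3.84 CPM against 4.23, 3.66 and 3.49 CPM, with overlap and a log2 fold change of 0.14 ± 0.13 (adjusted p = 0.477, edgeR). H2BC11 and H2BC26 lay above E8 control in each library without being called, with log2 fold changes of 0.33 ± 0.20 (adjusted p = 0.275, edgeR) and 0.73 ± 0.30 (adjusted p = 0.0949, edgeR).

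**Figure D2:**
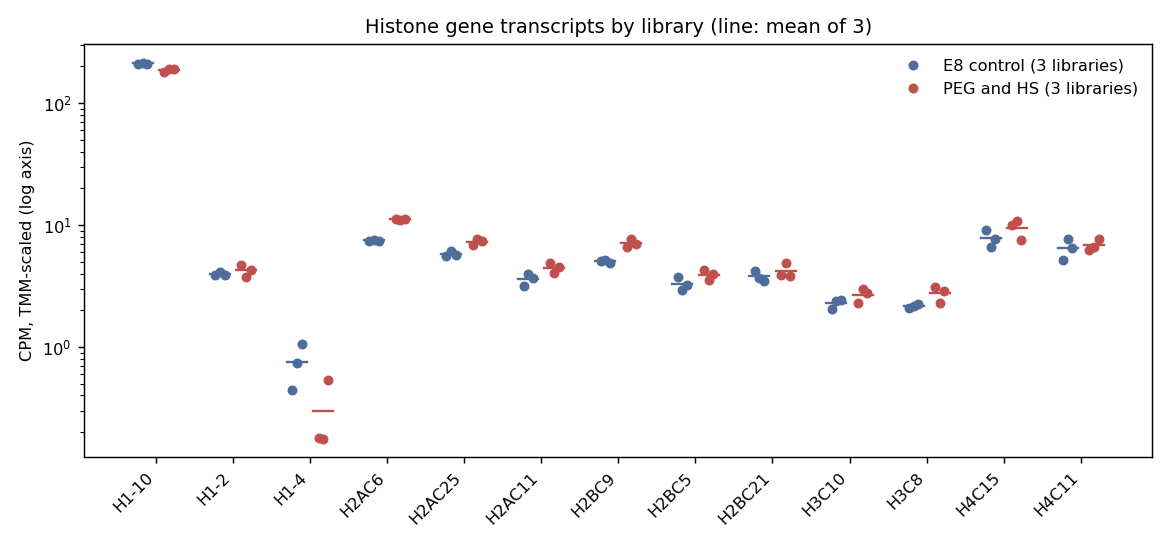
TMM-scaled CPM (vertical log axis) of 13 histone genes in each of 6 libraries, blue for E8 control and red for PEG and HS, with a line at the mean of 3. H1-10 is lower in every PEG and HS library, H2AC6, H2AC25 and H2BC9 are higher in every one, as are H2AC11 and H3C8, and the points of H1-2, H1-4, H2BC5, H2BC21, H3C10, H4C15 and H4C11 overlap between media.

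No single H3 or H4 gene was called higher, although the sum of the near copies H4C14 and H4C15 was, as was H3C13 summed with H3-7. H3C8 had 3.08, 2.30 and 2.90 CPM with PEG and HS beside 2.08, 2.19 and 2.25 CPM in E8 control. These did not overlap, and the log2 fold change of 0.35 ± 0.16 was not called (adjusted p = 0.122, edgeR). H3C10 had 2.28, 2.97 and 2.75 CPM against 2.04, 2.40 and 2.41 CPM, with overlap and a log2 fold change of 0.21 ± 0.16 (adjusted p = 0.366, edgeR). H3C3 was the H3 gene below E8 control in each library, with a log2 fold change of -0.93 ± 0.49 (adjusted p = 0.19, edgeR).

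H3C4 (ENSG00000197409) was counted 0 times in each PEG and HS library and 0, 13 and 6 times in E8 control. The first E8 control library was thus as empty as the PEG and HS libraries, and the groups overlapped. The call (adjusted p = 0.0245, edgeR) rests on 19 counts, which puts PEG and HS at least 6.31-fold lower against a floor of 3 counts over the group, before any error between libraries. DESeq2 gave no adjusted p for it, and it had too few counts to be tested with filterByExpr or without E8 control replicate 2. It was not called against a 1.2-fold change. Of the other 11 alternatives that gave an adjusted p, the call held in 6 and was lost with limma-voom, without any 1 of the 3 PEG and HS libraries and with copies added together. H3C4 shares 96.6% of its 31-base words with a readthrough gene listed as ENSG00000282988, which was counted 22, 24 and 19 times in PEG and HS and 17, 5 and 19 times in E8 control. Added together with it and with H2AC7, which the same readthrough spans, the log2 fold change was -0.08 ± 0.28 (adjusted p = 0.875, edgeR).

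The H4 genes all encode the same kind of core histone, and several are near copies. H4C12 (ENSG00000273542) was counted 11, 0 and 0 times in PEG and HS and 21, 51 and 36 times in E8 control, without overlap. Its fitted log2 fold change of -3.26 ± 0.68 was called (adjusted p = 0.00225, edgeR), though not by DESeq2 (adjusted p = 0.176). H4C12 shares 93.0% of its 31-base words with H4C11, which had 6.20, 6.62 and 7.62 CPM with PEG and HS beside 5.19, 7.70 and 6.46 CPM in E8 control, a log2 fold change of 0.07 ± 0.12 (adjusted p = 0.73, edgeR). The sum of both was 6.52, 6.62 and 7.62 CPM against 5.97, 9.27 and 7.45 CPM, with overlap and a log2 fold change of -0.14 ± 0.11 (adjusted p = 0.39, edgeR). The difference seen for H4C12 alone was not seen for the pair.

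How counts fell between copies can be read most plainly from H3C14 and H3C15, which lie on opposite strands of chromosome 1 (chr1:149840687-149841208 and chr1:149852608-149853125). They share 99.2% and 100% of their words, and their printed stem-loops have the same letters. H3C14 was counted 55, 0 and 0 times in PEG and HS and 46, 75 and 0 times in E8 control, and H3C15 was counted 0, 54 and 47 times and 0, 0 and 77 times. In each of the 6 libraries one copy held every count and the other none. The sum was 1.63, 1.91 and 1.39 CPM with PEG and HS beside 1.71, 2.31 and 2.13 CPM in E8 control, with a log2 fold change of -0.34 ± 0.18 (adjusted p = 0.17, edgeR). The value of either copy alone is therefore uncertain.

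H4C14 and H4C15 (chr1:149832657-149839767 and chr1:149854045-149861159) share 98.6% and 100% of their words. H4C15 had 10.0, 10.8 and 7.50 CPM with PEG and HS beside 9.12, 6.62 and 7.65 CPM in E8 control, with a log2 fold change of 0.28 ± 0.13 that was not called (adjusted p = 0.132, edgeR) except without PEG and HS replicate 3 (0.43, adjusted p = 0.0123, edgeR). H4C14 had 3.20, 3.08 and 6.15 CPM against 3.19, 4.99 and 2.25 CPM, and also overlapped. In each medium the library lowest in H4C15 was the highest in H4C14. E8 control replicate 3, however, was lowest in H4C14 without being highest in H4C15. The sum was 13.2, 13.9 and 13.7 CPM with PEG and HS beside 12.3, 11.6 and 9.89 CPM in E8 control. The sum did not overlap between media and rose by 0.28 ± 0.08 on the log2 scale (adjusted p = 0.00594, edgeR). The log2 fold changes of the copies alone were of the same size, 0.28 for H4C15 and 0.27 ± 0.27 for H4C14 (adjusted p = 0.525, edgeR), without a call for either.

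**Figure D3:**
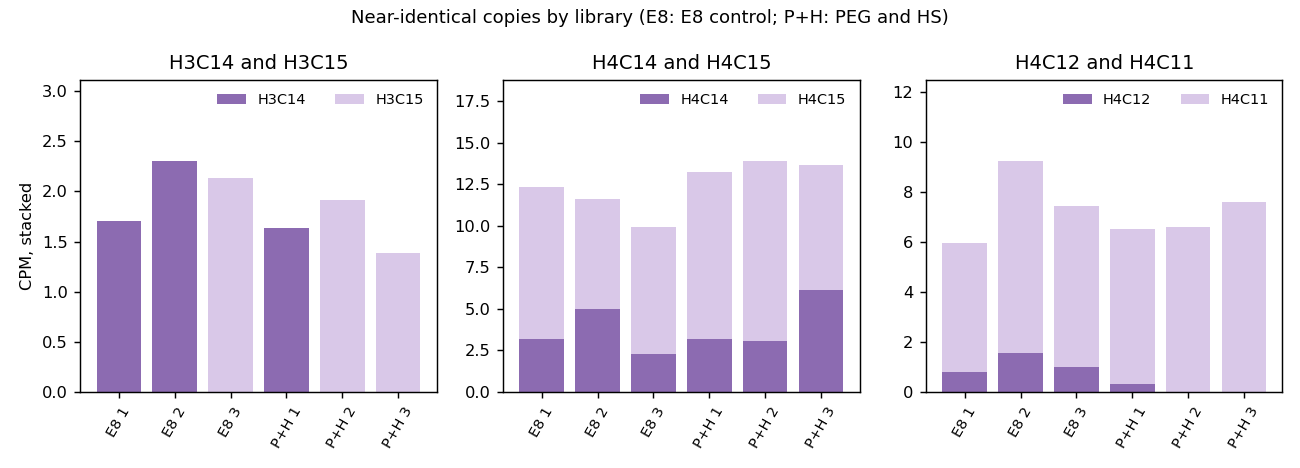
TMM-scaled CPM per library (vertical axis) of 3 pairs of near-identical histone genes, stacked, with E8 control libraries on the left and PEG and HS libraries on the right of each panel. For H3C14 and H3C15 each bar is of a single colour, H4C14 and H4C15 split differently in each library while their sum is higher in all 3 PEG and HS libraries, and H4C12 is a thin share of its pair.

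Sharing of this extent was limited to a part of the set. Counted over annotated transcripts, 14 of the 70 members shared at least 50% of their 31-base words with other annotated genes, and 39 shared under 10%. These shares are pooled over all other genes of the annotation, including genes not in the count files, and not taken with a single gene. Joining pairs of genes that share at least 50% of the words of the gene with fewer words put members into 8 groups, while H2BC18, with 57.1% of its words shared, joined none. With these groups added together before the fit, 28.8% of 15911 units were called. The pair H4C14 and H4C15 and the pair of H3C13 with H3-7 rose (the latter by 0.53 ± 0.17 on the log2 scale, adjusted p = 0.0171, edgeR), and the other 6 groups were not called. In the second pair most counts were of H3-7, at 65, 69 and 83 in PEG and HS and 41, 41 and 57 in E8 control, beside 6, 3 and 2 and 4, 6 and 8 of H3C13. H1-10, H2AC6, H2AC25 and H1-4 shared at most 2.09% of their words and H2BC9 17.1%, spread over several H2B genes.

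Summed over each histone type, the levels pointed in different directions. The 15 H2A genes summed to 26.8, 26.8 and 27.3 CPM with PEG and HS beside 20.2, 22.6 and 21.8 CPM in E8 control, 25.2% more, without overlap. The log2 ratio was 0.32 with H2AC6 and 0.17 without it. The 18 H2B genes summed to 25.8, 26.5 and 25.2 CPM against 22.9, 22.9 and 23.6 CPM, 11.7% more, also without overlap, and the log2 ratio was 0.16 with H2BC9 and 0.05 without it. The H3 genes (9.85, 10.4 and 10.0 against 8.30, 11.6 and 11.3 CPM) and the H4 genes (24.4, 25.9 and 27.1 against 22.5, 27.1 and 24.1 CPM) overlapped between media. The 9 H1 genes were at 215.5, 219.7 and 216.2 CPM in E8 control and at 186.2, 195.5 and 196.5 CPM with PEG and HS, nearly all of it H1-10. The other 69 members summed to 92.3, 94.1 and 95.1 CPM with PEG and HS beside 78.7, 89.8 and 86.8 CPM in E8 control. The log2 ratio was 0.14, while the log2 ratio of all 70 was -0.08. These sums are descriptions without a test.

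In a grouping by annotated 3′ end, 16 genes had a stem-loop and a transcript that ends at a poly(A) signal instead. They summed to 50.3, 52.7 and 50.7 CPM with PEG and HS beside 43.1, 42.9 and 40.7 CPM in E8 control. The groups did not overlap, the log2 ratio was 0.28, and of the 15 tested members 10 were positive and 5 negative. Among these members H2AC6 and H2AC25 were called. Much of the difference between the sums lay in a few genes. H2AC6 had a mean of 11.1 CPM with PEG and HS against 7.47 CPM in E8 control, and H2AC25 had 7.28 against 5.77 CPM. The pair H4C14 and H4C15 had 13.6 against 11.3 CPM. The ratio of the class without these genes was not taken. The median of this class was 1.66 CPM, not scaled by length, against 0.27 CPM for the 49 genes that end at the stem-loop in every transcript. Annotated exons spanned 861 to 5002 bases in the former class and 386 to 797 bases in the latter. These medians therefore do not compare levels per length. Of the 43 tested members of the class that ends at the stem-loop in every transcript 14 were positive and 29 negative.

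Within that class the libraries of E8 control differed among themselves. The 40 genes with a mean under 1 CPM summed to 8.23 CPM in E8 control replicate 1 and to 14.7 and 15.2 CPM in replicates 2 and 3, beside 8.16, 9.38 and 9.66 CPM in PEG and HS. The first E8 control library lay with the PEG and HS libraries, and E8 control replicates 2 and 3 stood apart. The 9 genes of at least 1 CPM summed to 32.7, 30.9 and 33.4 CPM with PEG and HS beside 26.1, 30.6 and 29.4 CPM in E8 control. The log2 ratio was 0.17. With E8 control replicates 2 and 3 both left out, 3 members were called: H2AC6 and H2BC9 higher, H1-10 lower (edgeR, with the single E8 control library taken to vary like the others). H1-4, H4C12 and H2AC25 were no longer called in that fit. H3C4 had no count in the remaining libraries and could not be tested there.

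**Figure D4:**
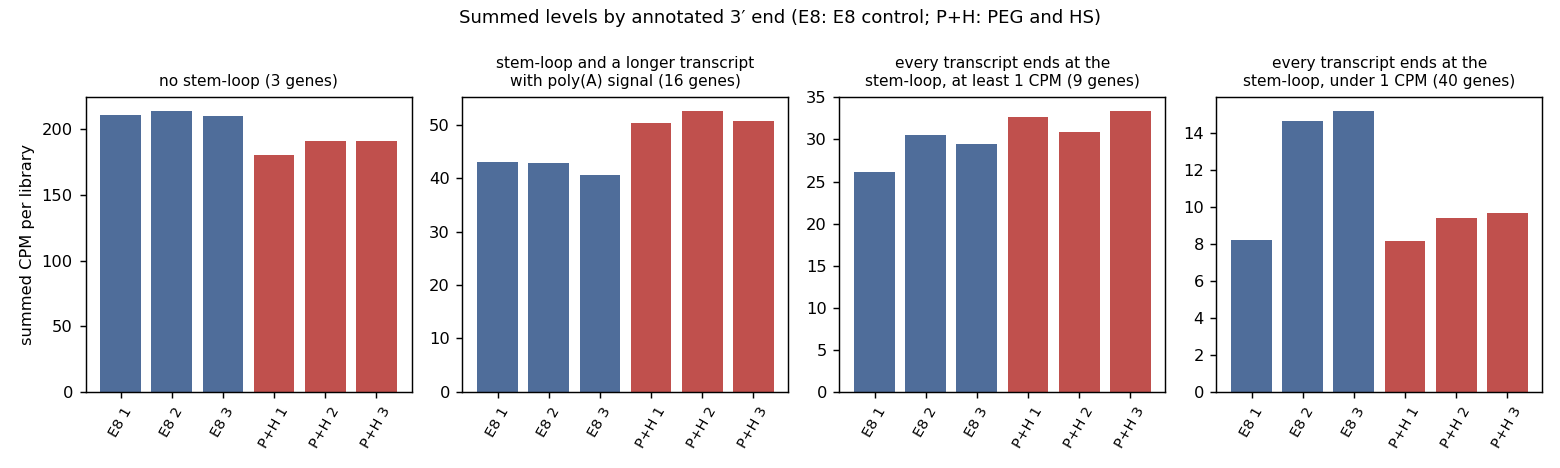
Summed CPM per library (vertical axis from 0, scaled for each panel) of histone genes grouped by annotated 3′ end, with blue bars for E8 control and red bars for PEG and HS. The genes without a stem-loop, whose counts are nearly all of H1-10, sum lower in all 3 PEG and HS libraries. Those labelled with a longer transcript, meaning a transcript that ends at a poly(A) signal and not at the stem-loop, are higher in all 3. In the genes under 1 CPM that end at the stem-loop E8 control libraries 2 and 3 stand above the other 4.

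By place, 34 of the genes lay in the larger cluster of chromosome 6 and 21 in its second cluster, 9 in the larger and 2 in the smaller cluster of chromosome 1, 2 on chromosome 12 and 2 on chromosome 3. The called genes were spread over them: H1-10 lay on chromosome 3, H2AC6, H2BC9, H1-4 and H3C4 lay in the larger chromosome 6 cluster, H4C12 in the second and H2AC25 in the smaller chromosome 1 cluster. Histone genes often stand head to head, and 14 pairs on opposite strands had starts within 1000 bases of each other. H2AC6 starts 219 bases from H2BC4, which had a log2 fold change of -0.27 ± 0.29 (adjusted p = 0.552, edgeR) at 0.751 CPM. H2AC25 starts 230 bases from H2BC26, whose log2 fold change of 0.73 was given above. H2BC9 starts 979 bases from H3C7, with a log2 fold change of -0.14 ± 0.59 (adjusted p = 0.899, edgeR) at 0.273 CPM. In these 3 pairs the neighbour was not called, and the difference within a pair was not tested.

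The promoters of the 3 genes that rose are shown as the 200 bases before the RefSeq gene start (GRCh38): H2AC6 (chr6:26123972-26124171, plus), H2BC9 (chr6:26251414-26251613, plus) and H2AC25 (chr1:228457874-228458073, minus). Capitals mark 3 motifs sought on both strands, CCAAT (bound by NF-Y), TATAAA (the TATA box) and ATTTGCAT (the octamer bound by POU2F1), which do not overlap in these windows. H2AC6 holds all 3 motifs, H2BC9 holds CCAAT and the octamer, and H2AC25 holds CCAAT alone.
H2AC6: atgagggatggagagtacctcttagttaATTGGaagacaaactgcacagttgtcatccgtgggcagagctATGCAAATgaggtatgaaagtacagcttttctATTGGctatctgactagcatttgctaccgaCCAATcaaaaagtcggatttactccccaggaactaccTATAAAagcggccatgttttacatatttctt
H2BC9: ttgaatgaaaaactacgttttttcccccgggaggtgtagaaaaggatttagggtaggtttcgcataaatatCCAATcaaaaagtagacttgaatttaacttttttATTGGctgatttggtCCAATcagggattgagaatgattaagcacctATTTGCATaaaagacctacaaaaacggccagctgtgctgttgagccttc
H2AC25: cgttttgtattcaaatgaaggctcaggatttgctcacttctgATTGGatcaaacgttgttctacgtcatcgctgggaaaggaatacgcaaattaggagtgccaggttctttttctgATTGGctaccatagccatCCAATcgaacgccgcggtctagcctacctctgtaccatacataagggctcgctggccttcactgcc

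In H2AC6 CCAAT starts 172, 98 and 68 bases before the gene start, the octamer 130 and TATAAA 31 bases before it. In H2BC9 CCAAT starts 129, 95 and 80 bases and the octamer 49 bases before the start. Over the 250 bases before the start of the 65 members in the RefSeq table, the octamer was present in 11 of 14 H2A, 14 of 18 H2B, 1 of 11 H3 and none of the 13 H4 and 9 H1 promoters, against 1.66% of 27305 genes. CCAAT was present in all 14 H2A, 18 H2B and 11 H3 promoters, in 8 of 9 H1 and in 3 of 13 H4 promoters, against 33.0% of all genes, and TATAAA in 41 of the 65 (63.1%), against 11.1%. These are matches of letters, not measured sites.

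Of 25 genes that control or process histone mRNA 3 rose and 1 fell, where 12.2% of all genes tested rose and 13.1% fell, with a median log2 fold change of 0.01. SLBP, which binds the stem-loop, had 37.5, 38.4 and 37.6 CPM with PEG and HS beside 39.3, 39.5 and 39.96 CPM in E8 control, without overlap and with a log2 fold change of -0.07 ± 0.04 that was not called (adjusted p = 0.246, edgeR). NPAT, the S phase coactivator of the histone genes, had a log2 fold change of 0.01 ± 0.05 (adjusted p = 0.928, edgeR). Those that rose were NCBP1, the large subunit of the nuclear cap-binding complex (0.16 ± 0.03, adjusted p = 0.000682, edgeR), CCNE1, cyclin E1 (0.16 ± 0.04, adjusted p = 0.00395, edgeR), and POU2F1 (0.10 ± 0.03, adjusted p = 0.0408, edgeR), whose libraries overlapped and whose call was lost without PEG and HS replicate 1 or 3 or E8 control replicate 2 or 3. CTIF, a translation factor that works with the nuclear cap-binding complex, fell by 0.25 ± 0.05 on the log2 scale (adjusted p = 0.00246, edgeR).

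Of the replication-independent variant genes, 10 of 12 listed names were tested as such, since H2AW and H2BU1 are older names of H2AC25 and H2BC26. Of the 10, 3 rose and none fell, against 12.2% and 13.1% of all genes tested. MACROH2A1, a variant with a large macrodomain, had 201, 205 and 192 CPM with PEG and HS beside 164, 152 and 159 CPM in E8 control, a rise of 0.33 ± 0.03 on the log2 scale (adjusted p = 3.2e-06, edgeR). H2AJ rose by 0.26 ± 0.05 (adjusted p = 0.00206, edgeR) and MACROH2A2 by 0.17 ± 0.05 (adjusted p = 0.0185, edgeR), the latter call being lost without PEG and HS replicate 3 or E8 control replicate 3. H2AZ1, H3-3A and H3-3B, the abundant variants, had log2 fold changes of 0.01 ± 0.03, 0.00 ± 0.02 and 0.00 ± 0.03, with adjusted p of 0.931, 0.978 and 0.956 (edgeR), and H2AX one of 0.08 ± 0.03 (adjusted p = 0.0767, edgeR). H2AX was called with a replicate block (adjusted p = 0.0222, edgeR) and with library size alone (adjusted p = 0.0467, edgeR).

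Of 25 histone chaperone genes 3 rose and none fell, a share of rises close to the 12.2% of all genes tested. UBN2, a subunit of the complex that deposits H3.3, rose by 0.40 on the log2 scale (adjusted p = 2.13e-06, edgeR), TONSL, which reads newly made H4, by 0.17 (adjusted p = 0.00137, edgeR), and DAXX, another H3.3 chaperone, by 0.09 (adjusted p = 0.0267, edgeR). Of 32 S phase genes 2 rose and 3 fell, fewer than the 25.3% called among all genes tested, with a median log2 fold change of 0.00. RRM2, a subunit of ribonucleotide reductase, rose by 0.23 (adjusted p = 4.19e-05, edgeR) and CDC6, a loader of the replicative helicase, by 0.11 (adjusted p = 0.0135, edgeR). TK1, thymidine kinase, fell by 0.14 (adjusted p = 0.0102, edgeR). CDT1, another helicase loader, and RRM1, the large subunit of ribonucleotide reductase, fell by 0.10 and 0.09 (adjusted p = 0.0302 and 0.0392, edgeR). CDC6, CDT1 and RRM1 were not called without PEG and HS replicate 1. CDT1 was also lost without PEG and HS replicate 2 or 3 or E8 control replicate 2, RRM1 without PEG and HS replicate 2 or E8 control replicate 1 or 3 and with library size alone in place of TMM, and DAXX without PEG and HS replicate 1 or 2 or E8 control replicate 1 or 3.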

How the data were processed

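Poly(A)-enriched RNA of 6 libraries was sequenced, 3 per medium. According to the methods, the authors ran the nf-core/rnaseq pipeline, with Trim Galore 0.6.7 to trim reads and STAR 2.6.1 to map them to GRCh38. The deposited values are raw counts per gene, 1 file per library, with 26991279 to 36185138 counts. The counting tool, its use of strand and its treatment of reads that fit several genes are not given in the sources used here. Of 19977 identifiers 19916 matched GENCODE 44, which gave symbols, coordinates and transcripts.

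Genes whose counts added up to at least 10 were tested with edgeR 4.0.16 in R 4.3.3 (TMM, glmQLFit, glmQLFTest, no covariate, Benjamini-Hochberg over all genes tested). SE was taken as the size of the log2 fold change over the root of the F statistic. The common biological coefficient of variation was 3.12%. With 3 libraries per medium an exact two-sided permutation test cannot go below 0.1, so none was used. Alternatives were DESeq2 1.42.0, limma 3.58.1 (voom), other scalings, filters and thresholds, a replicate block, leaving out libraries, and adding genes that share at least 50% of 31-base transcript words. The fits were tested on simulated data. Same-numbered libraries did not deviate together (r = 0.031, 0.038 and 0.043), so numbers do not pair them.

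The rule for members uses no measured value, but the rule and the lists were chosen with earlier results of these data known. Named with library values are the 2 members of highest mean CPM in each histone type, H1-10 and the called members, and of each list called genes of largest fold change. H2AC11, H3C3, H2BC11, H2BC26, H1-3, H1-5, members of shared sequence, neighbours, SLBP, NPAT and variants not called were added after their values were seen. 1 gene that meets the naming rule is not reported here and is in none of the counts of members.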

Additional observations from a re-analysis of the deposited data

How the results depend on the processing

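H1-10, H2AC6 and H2BC9 kept direction and call in the 13 alternatives of tool, scaling, filter, block and libraries, while against a 1.2-fold change only H2AC6 and H4C12 were called. The fit with a replicate block called 7 members, with 3 higher and 4 lower, the same genes as without it, and 4444 of all genes. Called lower were 1 member with DESeq2, 1 against a 1.2-fold change, 2 at an adjusted p under 0.01, 2 with families of shared sequence added and 1 without E8 control replicates 2 and 3, an alternative chosen after seeing the data. Leaving out 1 library gave 2 to 5 lower and 3 to 4 higher. Called higher were 1 against a 1.2-fold change and 5 with families added. All genes called were 868 against a 1.2-fold change, 2601 at an adjusted p under 0.01 and 1959 without both E8 control libraries. Against a 1.2-fold change 0 processing, 0 variant, 1 chaperone and 0 S phase genes were called. Chaperone calls were 6 with limma-voom, 6 with library size alone and 6 with families added. S phase calls were 1 at an adjusted p under 0.01, and 2 without PEG and HS replicate 1, with 2 to 4 over single libraries left out. Without H1-10 the log2 ratio of summed CPM was -0.091 for H1 and 0.14 for all members. Without its highest member it was 0.17 for H2A and 0.052 for H2B. Genes near 0 changed sign without being called: H4C11 was -0.14 with families added and -0.053 to 0.21 over single libraries left out, H2AZ1 -0.0013 with filterByExpr and -0.027 to 0.034 over libraries, H3-3A 0.0074 with library size alone and -0.016 to 0.0085 over libraries, H3-3B -0.0036 with filterByExpr and -0.013 to 0.018 over libraries, and NPAT -0.025 to 0.056 over libraries. H2AX was called with the replicate block and with library size alone, and RRM1 was not called with library size alone. Members called only after leaving out 1 library were H3C14 (without PEG and HS replicate 1), H4C15 (PEG and HS replicate 3), H2BC26 and H3C11 (E8 control replicate 1) and H3C15 (E8 control replicate 3). The cause of these changes was not tested. Depth limits the 37 members under 100 counts, and poly(A) selection captures mRNA that ends at the stem-loop poorly.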
